A study of Mus musculus with 8 samples.

Results

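The mitochondrial ribosomal protein genes are the nuclear genes whose symbols start with Mrpl or Mrps followed by a number, and 78 such genes were listed in both the RNA-seq table of 24539 entries and the Ribo-seq table of 25033 entries. Of these 78, 49 carry the prefix of the large subunit (Mrpl) and 29 that of the small subunit (Mrps). The livers came from C57BL/6 mice that received a diet with 45% of its energy from fat from 8 weeks of age and were collected at week 25, which leaves 17 weeks on the diet, although the treatment protocol in the labels gives 25 weeks. The HF group received the diet alone, and the HB group received the same diet with 2% (w/v) betaine dissolved in water; 6 mice are stated per group. RNA-seq of polyadenylated RNA and Ribo-seq of ribosome-protected fragments (RPFs) were each done on 2 libraries per group, and the sources differ on what a library stands for. The labels describe pooling of RNA preparations before RNA-seq library construction, whereas the study's methods describe the sequencing of 2 mice per group as biological repeats, so it is not settled whether the spread between libraries is one between mice or partly technical. Levels are given as RPKM, the reads of a gene per kilobase of its length and per 1000000 reads of the library, as deposited by the authors.

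Mitochondrial ribosomes translate the few proteins that mitochondrial DNA still encodes, all of them core subunits of the respiratory chain and ATP synthase. Their rRNAs come from mitochondrial DNA, but every one of their proteins is encoded in the nucleus, translated in the cytosol and imported. Compared with a bacterial ribosome they have less rRNA and more protein, and besides homologues of bacterial ribosomal proteins they hold many proteins that bacteria lack. By number, 44 of the 78 genes correspond to a bacterial ribosomal protein (up to 36 in the large and up to 21 in the small subunit), and the other 34 lie beyond these numbers.

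The RNA-seq libraries held 11661207 (HF 1), 11824128 (HF 2), 22543471 (HB 1) and 18082686 (HB 2) reads, and the Ribo-seq libraries were much smaller, with 387980 (HF 1), 1056546 (HF 2), 257086 (HB 1) and 141890 (HB 2) reads. These totals were worked out from the RPKM values themselves, in which 1 read is the smallest possible step of a gene. Protein-coding genes took 94.9% to 97.8% of the RNA-seq reads, and 92.5% (HF 1), 91.8% (HF 2), 87.4% (HB 1) and 81.1% (HB 2) of the Ribo-seq reads. Of the marker lists, that of hepatocytes had by far the highest level in every RNA-seq library, with a summed level of 45655 to 55257 RPKM over 8 genes, whereas the summed level of 5 erythroid markers was 523 to 675 RPKM in HF, 738 RPKM in HB library 1 and 2249 RPKM in HB library 2. In Ribo-seq the erythroid sum was 1109 and 617 RPKM in HF and 2559 and 381 RPKM in HB. Of the 5 erythroid mRNAs, Hbb-bs, Hbb-bt and Alas2 were called higher in HB (limma). Over all tested genes, 7.92% were called higher in mRNA and 19.1% lower. Of 6 macrophage mRNAs, with a median log2 fold change of 0.63, Cd5l (1.27, adjusted p = 0.0144) and Marco (0.94, adjusted p = 0.0316) were called higher, while Clec4f, the most abundant, was at 72.6 and 64.4 RPKM in HF and at 48.9 and 49.6 RPKM in HB. The summed macrophage markers reached at most 128 RPKM in RNA-seq, and those of stellate, endothelial, bile duct, lymphocyte, muscle and pancreas cells were lower in each library. Of the 5 endothelial mRNAs, 2 had a higher and 3 a lower mean in HB. Stab2 alone was called, as lower (log2 fold change -0.90, adjusted p = 0.0341, limma). Ptprc, the 1 lymphocyte mRNA tested, was also called lower (-1.01, adjusted p = 0.0151, limma), beside 19.1% of all tested genes. In RPF, 0 of 6 macrophage and 0 of 5 endothelial markers had a higher mean of log2(RPKM + 1) in HB. Their median log2 fold changes were -0.59 and -1.25. Of 5 stellate markers tested in RPF, 0 were higher as well (median -1.04). Of all 11190 genes tested in RPF, 7879 were lower, with a median of -0.43. In bulk liver, fewer cells of a type and less RNA per cell cannot be told apart, and the part of the erythroid and macrophage markers in the results was not tested.

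All 78 genes passed the filter of a mean of at least 1 RPKM in both assays. At the mRNA level their means over the 4 libraries ran from 2.89 RPKM (Mrpl19) through a median of 29.1 RPKM to 215 RPKM (Mrps21). The median level was 27.9 RPKM for the large subunit and 29.4 RPKM for the small subunit, whereas the mean of the large subunit was 1.23, 1.46, 1.25 and 1.31 times that of the small subunit in HF 1, HF 2, HB 1 and HB 2. The range was wide within each, from 2.89 to 173 RPKM and from 4.42 to 215 RPKM. Between 606 and 8251 RNA-seq reads over the 4 libraries lay behind each gene.

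Most mRNAs of the set were higher with betaine, while most other mRNAs were lower. Of the 78 genes, 59 had a higher mean of log2(RPKM + 1) in HB and 19 a lower one, and the median log2 fold change (HB minus HF, of log2(RPKM + 1)) was 0.36, against a median of -0.19 over all 10687 genes tested. With limma and an adjusted p under 0.05, 10 members rose in HB, beside 7.92% of all tested genes called in that direction, and 1 member fell, beside 19.1% of all tested genes. The thresholds of the study, p under 0.001 before adjustment and a log2 change of more than 1, were passed upwards by 4 members, beside 2.30% of all genes, and downwards by 1 member, beside 6.56% of all genes. In 42 members both HB libraries lay above both HF libraries, beside 24.8% of all genes, and in 10 members both lay below, beside 43.3% of all genes.

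**Figure D1:**
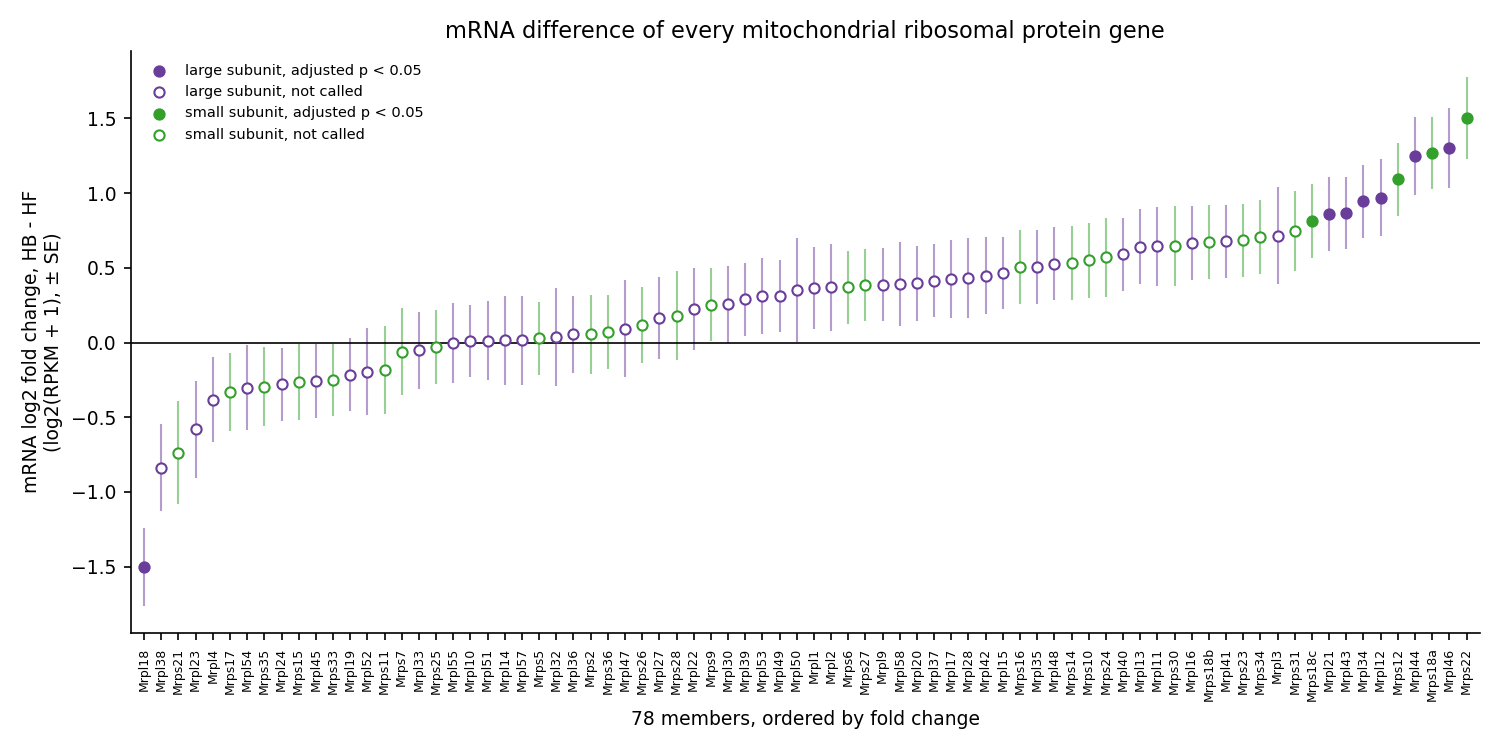
Log2 fold change of the mRNA (HB minus HF, of log2(RPKM + 1)) of each of the 78 genes with its standard error, ordered by size, in purple for the large and green for the small subunit; filled points have an adjusted p under 0.05 (limma). The points run from -1.50 for Mrpl18 to 1.50 for Mrps22, 59 of 78 lie above 0, and large and small subunit genes are mixed along the order.

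The calls rested on few libraries. When 1 library is left out, its group has 1 library, whose spread is assumed to be that of the other group. Without HF library 1 or without HF library 2, 3 members kept their call upwards in each case (Mrps18a and Mrps22 in both, Mrpl44 in the first and Mrpl46 in the second), and without HB library 2 there were 16 calls upwards and 4 downwards. When genes of any level were tested, no gene at all was called and the adjusted p of the 11 members (limma) lay between 0.0539 and 0.0701, and with all libraries shifted to a common median 25 members were called higher and 1 lower.

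Mrps22, a small subunit protein without a bacterial counterpart, showed the largest rise. Its mRNA stood at 3.74 and 4.45 RPKM in HF and at 16.3 and 11.01 RPKM in HB, so the groups were well apart. The log2 fold change was 1.50 ± 0.27 (SE of limma, which shares variance across genes, n = 2 libraries per group, adjusted p = 0.00695, limma). The gene lies at chr9:98588730-98601660 on the minus strand (GRCm38, GENCODE M21). Mrps18a, one of 3 paralogues of bacterial protein S18, was at 13.5 and 13.8 RPKM in HF and at 36.5 and 32.2 RPKM in HB (log2 fold change 1.27 ± 0.24, adjusted p = 0.00815). The other two S18 paralogues were higher in both HB libraries as well. Mrps18c was at 25.3 and 27.6 RPKM in HF and at 51.0 and 43.6 RPKM in HB (log2 fold change 0.81 ± 0.25, adjusted p = 0.0370). Mrps18b was at 32.9 and 29.2 RPKM in HF and at 53.7 and 46.6 RPKM in HB and missed the threshold (adjusted p = 0.0694). Mrps18a lies at chr17:46110986-46128910 and Mrps18c at chr5:100798627-100804471, both on the plus strand. Despite its symbol, Mrps18a sits in the large subunit of the mammalian mitochondrial ribosome.

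Mrps12, the homologue of bacterial S12 at the decoding centre, was the other Mrps gene called. It stood at 23.1 and 20.9 RPKM in HF and at 48.8 and 47.1 RPKM in HB, with little spread within either group (log2 fold change 1.09 ± 0.24, adjusted p = 0.0124, limma). The gene lies at chr7:28739641-28741820 on the minus strand. Of the most abundant small subunit mRNAs, Mrps34 (52.4 and 58.6 RPKM in HF, 87.4 and 94.8 RPKM in HB), Mrps16 (39.2 and 36.5 against 49.8 and 58.6 RPKM) and Mrps24 (34.1 and 37.4 against 45.5 and 62.8 RPKM) were higher in both HB libraries. None of these 3 reached the threshold, with adjusted p-values of 0.0601, 0.157 and 0.135. Mrps7, as abundant as these, was at 69.7 and 53.3 RPKM in HF and at 47.2 and 72.2 RPKM in HB, with overlapping groups and a log2 fold change of -0.062 that changed sign with a common median. Mrps21, the most abundant of all, had a lower mean in HB.

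In the large subunit, 6 genes rose. Mrpl12, which forms the flexible stalk that recruits translation factors, was the most abundant of them. Its mRNA was at 79.2 and 78.1 RPKM in HF and at 139 and 172 RPKM in HB, 1.98 times the HF mean and with no overlap (log2 fold change 0.97 ± 0.26, adjusted p = 0.0232, limma). The gene lies at chr11:120484613-120489065 on the plus strand. Its partners at the stalk base did not pass the test. Mrpl10 was at 25.2 and 28.4 RPKM in HF and at 26.8 and 27.0 RPKM in HB, and Mrpl11 at 5.45 and 7.75 RPKM in HF and at 10.6 and 10.9 RPKM in HB (adjusted p = 0.0947).

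Mrpl46 and Mrpl44 were low mRNAs with HB means of 2.63 and 2.70 times the HF means. Mrpl46 was at 5.83 and 8.71 RPKM in HF and at 20.3 and 17.9 RPKM in HB (log2 fold change 1.30 ± 0.27, adjusted p = 0.0101, limma). Mrpl44, whose protein has a fold related to RNase III, was at 5.00 and 3.98 RPKM in HF and at 13.7 and 10.5 RPKM in HB (log2 fold change 1.25 ± 0.26, adjusted p = 0.0104). The genes lie at chr7:78775236-78783531 (minus strand) and chr1:79776018-79781445 (plus strand). In the annotation, exons of Mrpl46 overlap exons of Mrps11, and those of Mrpl44 overlap Wdfy1, in each case on the opposite strand. The sources used here do not state a strand-specific count, so reads in such overlaps cannot be assigned with certainty. Mrps11 was at 23.9 and 19.4 RPKM in HF and at 14.6 and 24.3 RPKM in HB, and Wdfy1 fell (log2 fold change -1.40, adjusted p = 0.00920). The part of shared reads in these results was not tested.

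Mrpl34, Mrpl43 and Mrpl21 completed the calls. Mrpl34, a homologue of bacterial L34, rose from 37.8 and 41.1 RPKM in HF to 74.9 and 78.8 RPKM in HB (log2 fold change 0.94 ± 0.24, adjusted p = 0.0211, limma). Mrpl43 was at 14.7 and 13.7 RPKM in HF and at 26.0 and 27.3 RPKM in HB. Mrpl21 was at 14.1 and 13.7 RPKM in HF and at 23.3 and 29.1 RPKM in HB. Both had a log2 fold change of 0.86, with adjusted p-values of 0.0278 and 0.0319 (limma), and HF and HB did not overlap in any of the 3 genes. They lie at chr8:71464959-71465747 (plus strand), chr19:45004829-45006442 (minus strand) and chr19:3282901-3292837 (plus strand). Over the 11 called members, 6 have exons that overlap a gene on the other strand and 1 has exons that overlap a gene on its own strand.

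**Figure D2:**
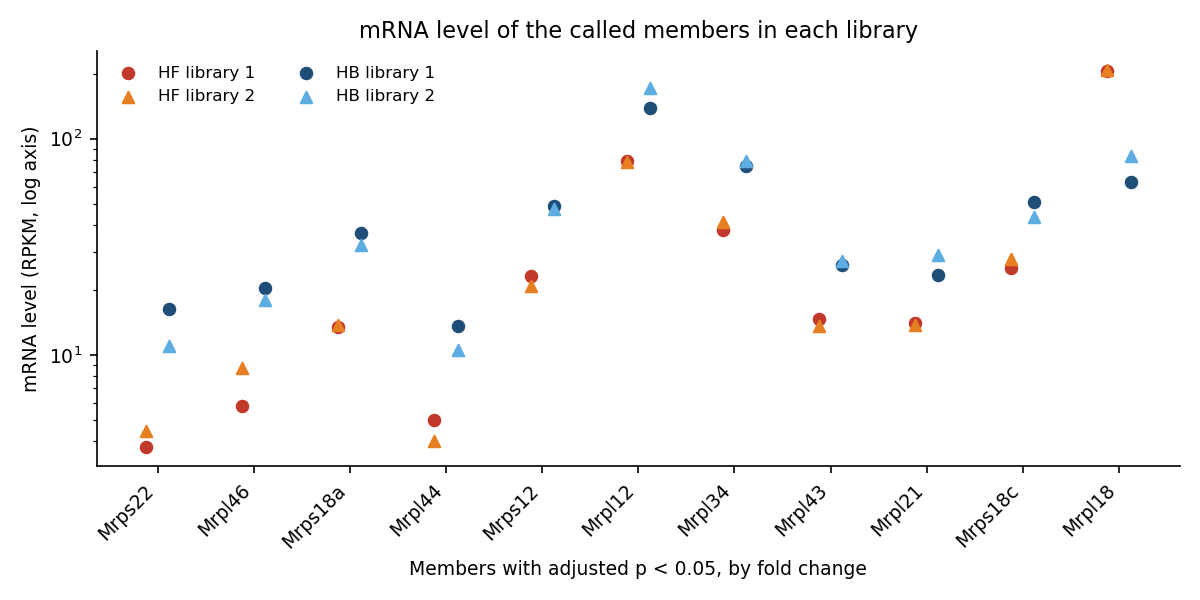
mRNA level (RPKM, log axis) of the 11 members with an adjusted p under 0.05 in each of the 4 RNA-seq libraries, red and orange for HF and dark and light blue for HB, circles for library 1 and triangles for library 2. In each of the 10 genes from Mrps22 to Mrps18c both HB points lie above both HF points, and in Mrpl18 both lie far below.

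Mrpl18 was the single member called lower and moved against the set. Its protein is the homologue of bacterial L18, and the gene lies at chr17:12911349-12916345 on the minus strand. The mRNA stood at 207 and 209 RPKM in HF and at 63.4 and 83.3 RPKM in HB, so that it dropped to 0.353 of its HF mean (log2 fold change -1.50 ± 0.26, adjusted p = 0.00652, limma). With each of the 4 libraries left out in turn, Mrpl18 was among the genes called lower, with the spread then taken from the group with 2 libraries, and without the filter on low values it was not called. The exons of Mrpl18 overlap those of Tcp1 on the other strand, and Tcp1 was level (log2 fold change 0.04, adjusted p = 0.928). Of the mRNA level summed over all 78 genes, Mrpl18 held 6.65% and 6.52% in the HF libraries and 2.11% and 2.24% in the HB libraries.

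Other abundant members leaned the same way without passing the test. Mrps21, the most abundant mRNA of the set, was at 303 and 227 RPKM in HF and at 113 and 219 RPKM in HB (log2 fold change -0.74 ± 0.35, adjusted p = 0.139, limma). Mrpl38 was at 125 and 129 RPKM in HF and at 55.3 and 89.8 RPKM in HB (adjusted p = 0.0587), and Mrpl23 at 120 and 144 RPKM in HF and at 64.0 and 119 RPKM in HB (adjusted p = 0.207). In all 3 the lowest value was that of HB library 1. With HB library 1 as the only HB library, and the spread from HF alone, all 3 were called lower. Mrpl52 (167 and 198 RPKM in HF, 129 and 195 RPKM in HB) and Mrpl14 (157 and 172 against 130 and 211 RPKM) overlapped between the groups. A processed pseudogene named for Mrpl23 is annotated, and reads shared with it could not be separated here.

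The size of the difference varied with the level of the mRNA. Of the 39 members with the lower mean levels (2.89 to 28.9 RPKM), 34 were higher in HB and 5 lower, with a median log2 fold change of 0.39 and 6 calls upwards. Of the 39 with the higher mean levels (29.4 to 215 RPKM), 25 were higher and 14 lower, with a median of 0.18, 4 calls upwards and 1 downwards. Across the 78 members Spearman's rho between the mean level and the log2 fold change was -0.33, whereas across all 10687 tested genes it was 0.14, both given as descriptions since genes of the same libraries are not independent. All tested genes within the range of the lower levels had a median log2 fold change of -0.24 (n = 6103), with 37.5% of them higher in HB. In the range of the higher levels the median of all genes was 0.11 (n = 1702), with 55.9% of them higher, so that the 25 of 39 members there were near this background.

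**Figure D3:**
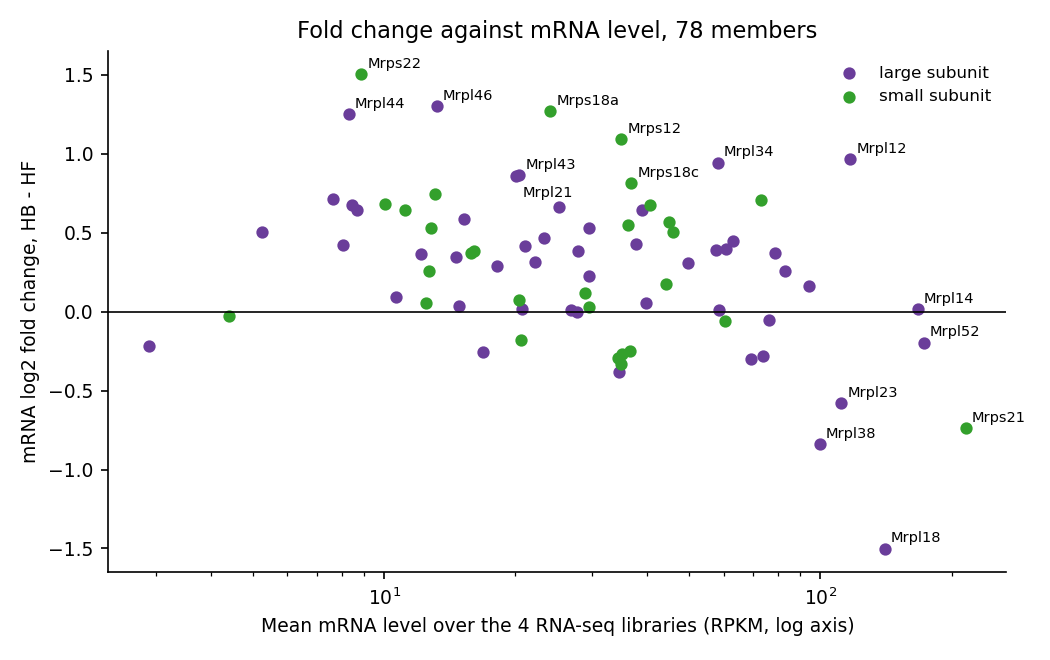
mRNA log2 fold change (HB minus HF) of the 78 genes against their mean mRNA level over the 4 RNA-seq libraries (RPKM, log axis), in purple for the large and green for the small subunit, with the called and the 7 most abundant genes named. The called increases spread from Mrpl44 and Mrps22 below 10 RPKM to Mrpl12 above 100 RPKM, and the 4 lowest points are Mrpl18, Mrpl38, Mrps21 and Mrpl23.

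The summed level overlapped between the groups. In RPKM the sum over the 78 mRNAs was 3109 and 3200 in HF and 3004 and 3719 in HB, so that HB library 1 lay below and HB library 2 above both HF libraries. In reads, the 78 mRNAs together took 2854 and 2943 reads per 1000000 library reads (RPM) in the HF libraries and 2900 and 3441 RPM in the HB libraries, so that HB library 1 lay within the HF values. Without the 4 most abundant members (Mrps21, Mrpl52, Mrpl14 and Mrpl18) the summed level was 2276 and 2394 RPKM in HF and 2568 and 3011 RPKM in HB, with no overlap, but the members left out include Mrpl18, which fell. A group of 2 against 2 libraries cannot reach an exact two-sided permutation p below 0.333, and no p is given for these sums.

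The large and the small subunit did not separate in the mRNA. The median log2 fold change was 0.35 over the 49 large subunit genes, of which 38 were higher in HB. By limma 6 of the 49 were called higher and 1 lower. Over the 29 small subunit genes the median was 0.37, with 21 higher, 4 called higher and 0 called lower by limma. Beside them, 7.92% of all tested genes were called higher and 19.1% lower. At an unadjusted p under 0.05 there were 13 large subunit genes, of which 11 were higher, and 9 small subunit genes, all of them higher, beside 4329 of all 10687 genes, of which 1382 were higher. The difference between the medians, -0.02, was smaller than its spread between replicate libraries (SD 0.06). Assigned by place in the ribosome, with Mrps30 and Mrps18a counted as large and Mrps36 left out, the medians were 0.36 for 51 genes and 0.31 for 26 genes. The ratio of the summed large to the summed small subunit level was 2.07 and 2.46 in HF and 2.11 and 2.21 in HB, with both HB values inside the HF range.

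Numbering by bacterial counterpart did not split the set either. The 44 genes with a bacterial number had a median log2 fold change of 0.37 (6 called higher, 1 lower), and the 34 beyond had a median of 0.33 (4 called higher, 0 lower). The 76 genes of cytosolic ribosomal proteins, which form the ribosome that translates the members themselves, had a median of 0.09, with 8 called higher, near the 7.92% of all tested genes, and 1 lower, beside 19.1% of all tested genes. The medians are descriptions, and the differences between these lists were not tested.

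Mrps30 and Mrps36 are the other members whose place departs from their symbol. Mrps30, which belongs to the large subunit, was at 7.44 and 9.47 RPKM in HF and at 16.1 and 11.7 RPKM in HB (adjusted p = 0.102, limma). Mrps36, now known as a component of the 2-oxoglutarate dehydrogenase complex of the citric acid cycle, was at 18.8 and 20.8 RPKM in HF and at 19.2 and 22.7 RPKM in HB, with overlapping groups. There are 3 annotated processed pseudogenes named for Mrps36, which may share reads with it. Mrpl58, a peptidyl-tRNA hydrolase that frees stalled ribosomes and is also built into the large subunit, was at 49.8 and 48.6 RPKM in HF and at 52.2 and 80.6 RPKM in HB (adjusted p = 0.319). The lowest mRNAs, Mrpl19 (3.24 and 3.11 RPKM in HF, 2.95 and 2.28 RPKM in HB) and Mrps25 (4.50 and 4.43 against 3.96 and 4.78 RPKM), showed no rise.

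Mrpl4 and Mrps17 also had a lower mean in HB, and neither passed the test. Mrpl4, a homologue of bacterial L4 at the exit tunnel, was at 41.8 and 35.9 RPKM in HF and at 23.7 and 36.7 RPKM in HB (adjusted p = 0.336, limma). Mrps17 was at 44.7 and 33.6 RPKM in HF and at 29.1 and 32.2 RPKM in HB (adjusted p = 0.364).

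The promoters of the set were compared for letters bound by factors known for genes of mitochondrial biogenesis. RefSeq promoters (250 bases before to 50 after the start, GRCm38.p6) matched 69 of the 78 members, and each motif was searched on both strands. The ETS letters CCGGAAG, recognised by GABP, stood in 26 of 69 members (37.7%), against 9.93% of all 27025 genes with a promoter and 41.1% of 56 cytosolic ribosomal protein genes. The NRF1 letters GCGCATGC stood in 8 members (11.6%) against 3.05% of all genes, and the YY1 letters AAGATGGC in 12 members (17.4%) against 3.19%. The Sp1 letters GGGCGG were in 34 members (49.3%, all genes 38.2%) and the TATA box TATAAA in 5 (7.25%, all genes 15.7%). Of the 10 members called higher, 7 held the ETS letters, 2 the YY1 letters and 0 the NRF1 letters. Mrpl18, the member called lower, also held the ETS letters, at base -240. Such matches describe the sequence and are not evidence of binding.

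Shown first are 100 bases directly before the start of 4 called members with ETS letters in this stretch. Mrps12 and Mrpl18 follow, which have no match within these 100 bases, and then 3 members with NRF1 letters, for comparison. The ETS letters of Mrps12 lie just after the stretch shown, at base 2 from the start. Capitals mark matches to any of the 5 motifs on either strand, and overlapping matches, such as the palindromic NRF1 site of Mrpl32, run together. Coordinates are 1-based on GRCm38.p6, and each sequence reads 5′ to 3′ on the strand of its gene.
Mrps22 (chr9:98601680-98601779, minus strand): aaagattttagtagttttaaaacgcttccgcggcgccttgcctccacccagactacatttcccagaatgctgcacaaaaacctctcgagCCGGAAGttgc
Mrps18a (chr17:46110904-46111003, plus strand): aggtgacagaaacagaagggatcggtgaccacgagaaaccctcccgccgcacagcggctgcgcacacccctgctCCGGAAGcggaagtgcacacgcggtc
Mrpl34 (chr8:71464826-71464925, plus strand): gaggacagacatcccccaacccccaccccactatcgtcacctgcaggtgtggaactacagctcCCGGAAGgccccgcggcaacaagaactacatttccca
Mrpl43 (chr19:45006443-45006542, minus strand): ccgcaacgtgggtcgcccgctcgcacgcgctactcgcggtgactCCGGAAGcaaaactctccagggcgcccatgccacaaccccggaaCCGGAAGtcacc
Mrps12 (chr7:28741822-28741921, minus strand): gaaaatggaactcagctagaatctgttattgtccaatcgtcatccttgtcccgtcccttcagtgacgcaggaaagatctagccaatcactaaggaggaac
Mrpl18 (chr17:12916092-12916191, minus strand): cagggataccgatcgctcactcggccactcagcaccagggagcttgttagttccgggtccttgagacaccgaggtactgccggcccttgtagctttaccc
Mrpl22 (chr11:58171564-58171663, plus strand): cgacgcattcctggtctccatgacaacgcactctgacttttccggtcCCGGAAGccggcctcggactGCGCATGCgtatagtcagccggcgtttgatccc
Mrpl32 (chr13:14613038-14613137, minus strand): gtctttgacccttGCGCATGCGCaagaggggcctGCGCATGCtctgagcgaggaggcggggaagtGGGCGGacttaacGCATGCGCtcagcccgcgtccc
Mrpl33 (chr5:31613851-31613950, plus strand): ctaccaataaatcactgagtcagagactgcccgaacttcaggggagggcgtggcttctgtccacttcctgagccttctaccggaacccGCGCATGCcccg

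The ETS letters lay close to the start in these genes, at base -11 in Mrps22, -26 in Mrps18a, -37 in Mrpl34 and both -56 and -12 in Mrpl43, counting back from the base just before the start to the first base of the match. Over the set, 16 members had them within 100 bases before the start and 9 after it, and the YY1 letters lay 12 to 37 bases after the start in 8 of their 12 genes. The 3 members shown with NRF1 letters had no called mRNA change: Mrpl22 was at 25.8 and 28.0 RPKM in HF and at 25.6 and 38.8 RPKM in HB, Mrpl32 at 12.1 and 16.7 against 20.2 and 10.5 RPKM, and Mrpl33 at 71.6 and 83.8 against 82.1 and 68.0 RPKM.

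The mRNAs of the factors themselves were mostly lower, as were those of most genes. Of 12 regulators of mitochondrial biogenesis, 0 were called higher (limma, also 0 at an unadjusted p under 0.05) and 3 lower, beside 7.92% and 19.1% of all tested genes, so that the count of lower genes was near the background. The median log2 fold change was -0.39, against -0.19 over all genes. Gabpb1, a subunit of GABP, was at 6.05 and 7.18 RPKM in HF and at 2.41 and 1.86 RPKM in HB (log2 fold change -1.28, adjusted p = 0.00853, limma). Esrra, the nuclear receptor ERRα, was at 65.4 and 62.7 RPKM in HF and at 25.8 and 32.5 RPKM in HB (log2 fold change -1.12, adjusted p = 0.0131). Nrf1 was at 3.73 and 4.67 RPKM in HF and at 2.10 and 2.11 RPKM in HB (log2 fold change -0.74, adjusted p = 0.0494). Whether these levels bear on the members was not tested.

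Genes that work with the mitochondrial ribosome were compared next. Of 18 mitochondrial translation factors, 4 rose and 1 fell, beside 7.92% and 19.1% of all tested genes. Tufm, the elongation factor that delivers aminoacyl-tRNA, was at 18.8 and 25.6 RPKM in HF and at 70.0 and 64.1 RPKM in HB (log2 fold change 1.57, adjusted p = 0.00575, limma). Gfm1, the translocase, was at 9.31 and 6.51 RPKM in HF and at 38.1 and 21.9 RPKM in HB (log2 fold change 1.77, adjusted p = 0.00666). Mrrf, the ribosome recycling factor, was at 4.95 and 5.11 RPKM in HF and at 12.5 and 11.01 RPKM in HB (log2 fold change 1.08, adjusted p = 0.0135). Gatb, a subunit of the enzyme that forms glutaminyl-tRNA, was the fourth (log2 fold change 0.82, adjusted p = 0.0342). Mtif2, an initiation factor, was at 15.3 and 15.7 RPKM in HF and at 9.92 and 5.26 RPKM in HB and fell (adjusted p = 0.0369). Factors of the same steps were not called, with log2 fold changes of -0.039 for Tsfm, -0.063 for Gfm2, -0.13 for Guf1 and 0.0037 for Mtif3.

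Of 23 assembly factors tested, 1 rose and 4 fell, which is near the shares of all tested genes (7.92% and 19.1%), and their median was 0.02. Mterf3, which takes part in ribosome assembly and in transcription of mitochondrial DNA, was at 33.7 and 27.2 RPKM in HF and at 9.96 and 6.79 RPKM in HB (log2 fold change -1.76, adjusted p = 0.00526, limma). Mrm1, a methyltransferase of the large rRNA, was at 6.16 and 7.85 RPKM in HF and at 1.88 and 2.55 RPKM in HB (log2 fold change -1.32, adjusted p = 0.00864). Mpv17l2 was the one that rose, from 11.1 and 7.44 RPKM to 18.4 and 20.6 RPKM (log2 fold change 1.02, adjusted p = 0.0233). Of 5 mitochondrial ribosomal proteins that carry other symbols, Chchd1 rose (log2 fold change 1.00, adjusted p = 0.0227) and the other 4 had lower means in HB without a call. The mRNAs and rRNAs encoded by mitochondrial DNA were not analysed here.

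Footprints were sparse for this set. Over the 4 Ribo-seq libraries a member had 7 to 137 reads with a median of 37, and 58 of the 78 had at least 20. The median member had 6.5 reads in HF library 1, 20 in HF library 2, 5 in HB library 1 and 2 in HB library 2. At most 3 reads were found for 13, 4, 25 and 55 members in these libraries, and 1, 0, 6 and 13 members had none. The RPF level of a single member in HB library 2 is therefore rough, and a count of 0 there allows up to 3 reads.

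**Figure D4:**
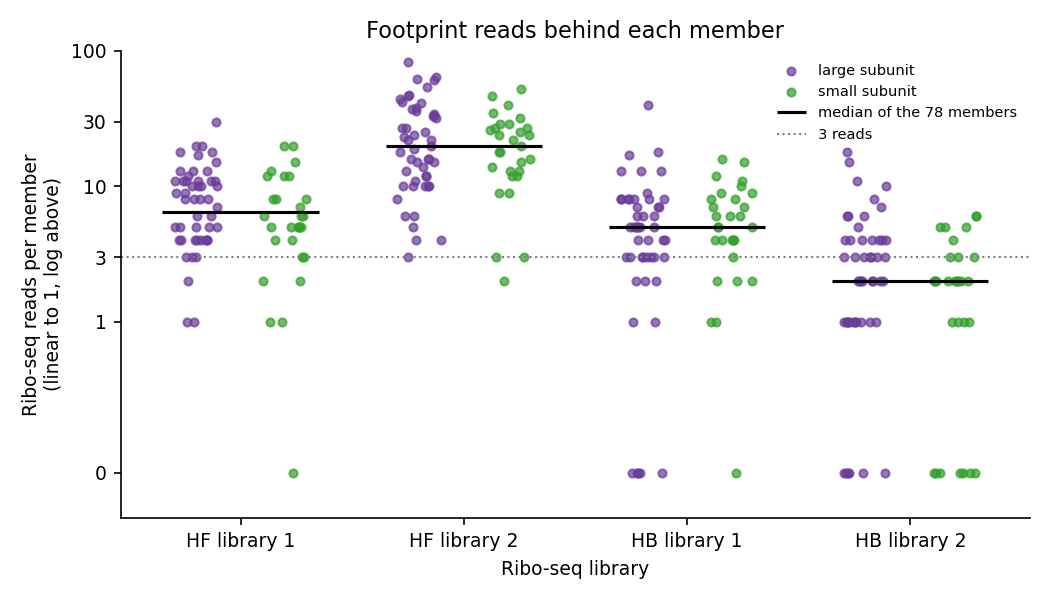
Ribo-seq reads behind each of the 78 members in each library (axis linear to 1 and logarithmic above), purple for the large and green for the small subunit, with the median as a bar and 3 reads as a dotted line. The medians are 6.5 and 20 reads in HF and 5 and 2 reads in HB, and 55 members in HB library 2 lie on or below the dotted line.

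RPF levels followed mRNA levels only in part. Mrpl12 had the highest mean RPF level (69.9 RPKM), while Mrps21, first by mRNA, had 40.4 and 44.5 RPKM in HF and 15.3 and 55.3 RPKM in HB on 19 reads in all. Across the 78 members Spearman's rho between mRNA and RPF level was 0.66 and 0.61 in the HF libraries, 0.59 in HB library 1 and 0.34 in HB library 2, the shallowest. The medians of the mean RPF level were 16.9 RPKM for the large and 16.6 RPKM for the small subunit.

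No member passed an adjusted p of 0.05 at the RPF level with limma, where the unadjusted p was under 0.05 for 8 members and the adjusted p was at least 0.493. With limma voom on the recovered reads the count was also 0, and the adjusted p was at least 0.0906. The thresholds of the study for footprints, p under 0.05 before adjustment and a log2 change of more than 1, were passed upwards by 4 members, beside 1.58% of all 11190 genes tested, and downwards by 4 members, beside 7.86% of all genes. Both HB libraries lay above both HF libraries in 8 members, beside 9.07% of all genes, and below in 14 members, beside 33.2% of all genes. The median log2 fold change was -0.20, against -0.43 over all genes, and 30 of 78 members were above 0. The sign of this median depended on the scaling, at 0.13 after a shift to a common median, 0.02 with voom and -1.02 after rescaling to a common sum. The calls by the study's thresholds moved with single libraries, from 0 higher and 2 lower without HF library 1 and 2 and 2 without HF library 2 to 5 and 14 without HB library 1 and 7 and 10 without HB library 2.

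Mrpl15 had the best covered increase in footprints. Its 11 and 61 reads in HF and 40 and 15 reads in HB gave 6.75 and 13.7 RPKM in HF and 37.0 and 25.2 RPKM in HB, with no overlap (log2 fold change 1.56 ± 0.50, adjusted p = 0.493, limma). Its mRNA changed less (18.6 and 20.2 RPKM in HF, 27.9 and 26.5 RPKM in HB). Mrps15 was at 13.7 and 12.1 RPKM in HF and at 37.3 and 22.5 RPKM in HB, on 29 reads in all. Mrps35 (14.5 and 21.3 RPKM in HF, 29.2 and 39.6 RPKM in HB) and Mrpl39 (5.57 and 20.98 against 27.3 and 41.9 RPKM) were likewise higher in both HB libraries, with adjusted p-values of 0.529 and 0.542.

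On the lower side, Mrps34 had 20 and 35 reads in HF and 4 and 3 reads in HB. The levels were 56.4 and 36.2 RPKM in HF and 17.02 and 23.1 RPKM in HB (log2 fold change -1.15 ± 0.40, adjusted p = 0.493, limma), while its mRNA was higher in both HB libraries. Mrps7, a homologue of bacterial S7 that helps to form the head of the small subunit, was at 29.5 and 24.9 RPKM in HF and at 13.4 and 12.1 RPKM in HB. Mrpl50 was at 24.5 and 24.3 RPKM in HF and at 9.25 and 13.4 RPKM in HB, and Mrpl10 at 23.5 and 36.8 RPKM in HF and at 11.8 and 17.1 RPKM in HB. The groups did not overlap in these 4 genes, but each rested on 9 or fewer reads per gene in the sum of both HB libraries.

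The remaining members past the study's thresholds had hardly any reads. Mrps36 had 1, 2, 2 and 4 reads in HF 1, HF 2, HB 1 and HB 2, and Mrpl23 had 1, 8, 5 and 2. Mrpl55 had 3 and 5 reads in HF and 0 in both HB libraries, where 3 reads would correspond to 12.3 and 22.3 RPKM, above its HF levels of 8.17 and 5.00 RPKM. A fall of Mrpl55 was therefore not detectable at this depth.

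Summed over the set, the share of footprints did not differ between the groups beyond their spread. The 78 members took 1642 RPM in HF library 1 (637 reads, 95% exact binomial interval 1517 to 1774) and 1755 in HF library 2 (1854 reads, 1676 to 1836). They took 1855 in HB library 1 (477 reads, 1693 to 2029) and 1621 in HB library 2 (230 reads, 1418 to 1844). The HB values enclosed the HF values. The intervals cover counting error only. Relative to reads on protein-coding genes alone, the shares were 1774 and 1912 RPM in HF and 2122 and 1998 RPM in HB, with both HB values higher.

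The large subunit took 1119 and 1173 RPM in HF and 1171 and 1184 in HB, the most even of these sums per library reads. Relative to reads on protein-coding genes it took 1209 and 1278 RPM in HF and 1339 and 1460 RPM in HB, with both HB values higher. The small subunit took 523 and 582 RPM of all library reads in HF and 685 and 437 in HB, so that the HB libraries lay on either side of the HF libraries. The intervals of the small subunit in HB, 587 to 794 and 335 to 560, did not overlap. By member, the median RPF log2 fold change was -0.20 for the large subunit (2 higher and 2 lower past the study's thresholds) and -0.13 for the small subunit (2 higher and 2 lower). The difference of -0.07 was smaller than its spread between replicates (SD 0.32) and changed sign when either HF library 1 or HB library 1 was left out, with values of 0.32 and 0.35.

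**Figure D5:**
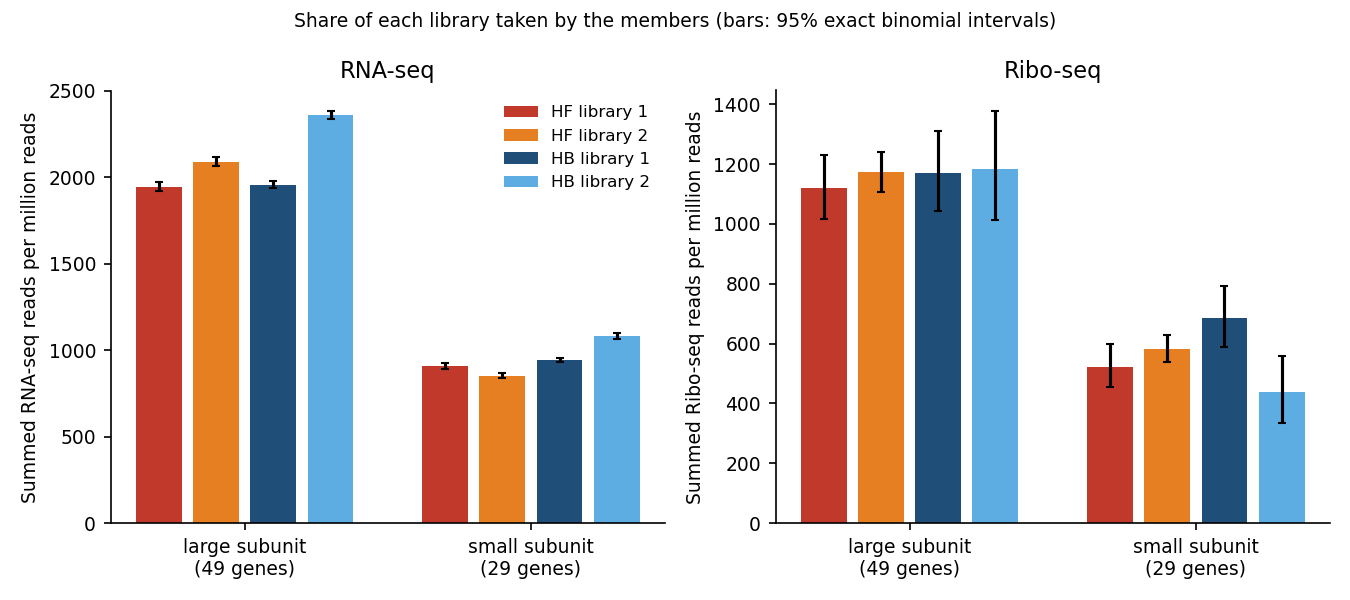
Reads of the 49 large and 29 small subunit genes summed, per 1000000 reads of each library (RPM), in RNA-seq (left) and Ribo-seq (right), red and orange for HF and blue for HB, with 95% exact binomial intervals for counting error. In Ribo-seq the 4 large subunit bars lie between 1119 and 1184 with overlapping intervals, and the small subunit bars of HB, 685 and 437, lie on either side of those of HF.

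The footprints of the 10 members whose mRNA rose can be set beside their mRNA. These genes were chosen by their mRNA, so that their mRNA values are a description. Together they took 189 and 191 RPM of RNA-seq in HF and 386 and 405 in HB. Their Ribo-seq reads numbered 73 and 237 in HF and 64 and 24 in HB, which is 188 and 224 RPM in HF and 249 and 169 RPM in HB, with the HB values on either side of the HF values. By gene, 5 of the 10 had a higher RPF mean on the log2 scale and 5 a lower one, with a median of -0.05.

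Translation efficiency (TE), the ratio of RPF to mRNA RPKM, was formed within a group by joining RPF and RNA libraries of equal number, which the labels do not tie to the same livers. The adjusted p of limma was at least 0.364 for every member, so that 0 were called, and it was under 0.05 before adjustment for 5. The thresholds of the study for TE, p under 0.05 before adjustment and a log2 change of more than 2, were passed upwards by 1 member, beside 1.49% of all 9455 genes tested, and downwards by 3 members, beside 4.60% of all genes. Both HB values lay above both HF values in 9 members, beside 14.0% of all genes, and below in 24 members, beside 31.7% of all genes. The median log2 fold change was -0.58, against -0.35 over all genes, with 20 members above 0 and 58 below. The size of this median depended on the scaling and on single libraries, as given in the closing section. Since TE contains the mRNA, its differences are not independent of those above. Without HF library 1 or HF library 2 no member passed the study's thresholds, whereas 15 members passed downwards without HB library 1 and 9 without HB library 2.

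All 4 TE calls rested on fewer than 20 footprint reads. They were Mrps36 upwards (9 reads) and Mrpl55 (8 reads), Mrpl41 (7 reads) and Mrpl46 (17 reads) downwards, and each of the 3 lower genes had 0 reads in HB library 2. Among the 58 members with at least 20 reads no gene passed the thresholds. There, Mrps34 had a TE of 1.08 and 0.619 in HF and of 0.195 and 0.244 in HB, without overlap (log2 fold change -1.85 ± 0.71, adjusted p = 0.396, limma). Mrpl12 had a TE of 0.995 and 1.01 in HF and of 0.513 and 0.292 in HB (log2 fold change -1.36 ± 0.65, adjusted p = 0.460), as its mRNA rose and its RPF level went from 78.8 and 79.1 RPKM to 71.4 and 50.3 RPKM. Mrpl50 (2.58 and 1.55 in HF, 0.422 and 1.17 in HB) and Mrpl35 (1.25 and 1.86 against 0.769 and 0.327) also had lower TE in both HB pairs.

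Some TE values were higher in HB. Mrps35 had a TE of 0.439 and 0.495 in HF and of 1.06 and 1.17 in HB (log2 fold change 1.21 ± 0.58, adjusted p = 0.465, limma), Mrps15 of 0.400 and 0.284 against 1.25 and 0.668, and Mrpl15 of 0.363 and 0.680 against 1.33 and 0.948. Mrpl39 went from 0.357 and 1.25 to 1.47 and 1.95. Mrpl18, whose mRNA fell, had an RPF level of 29.6 and 22.7 RPKM in HF and of 20.3 and 22.05 RPKM in HB on 42 reads, so that its TE was 0.143 and 0.109 in HF and 0.320 and 0.265 in HB (log2 fold change 1.22 ± 0.84, adjusted p = 0.583). None of these passed the test.

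As a ratio of summed RPKM, the TE of the 78 members was 0.472 and 0.488 in HF and 0.538 and 0.372 in HB. For the large subunit it was 0.471 and 0.440 in HF and 0.478 and 0.363 in HB, and for the small subunit 0.474 and 0.608 in HF and 0.665 and 0.391 in HB. In all 3 the HB values lay on either side of the HF values. The median TE over members separated the groups instead, at 0.641 and 0.565 in HF and 0.516 and 0.336 in HB for the 78 members. For the large subunit this median was 0.636 and 0.516 in HF and 0.454 and 0.339 in HB, and for the small subunit, where the groups overlapped, 0.662 and 0.710 in HF and 0.673 and 0.323 in HB. The median TE log2 fold change was -0.51 for the large and -0.60 for the small subunit, and the difference of 0.09 was smaller than its spread between replicates (SD 0.43). For 29 of the 78 members the Ribo-seq RPKM had been computed with another gene length than the RNA-seq RPKM, from 0.514 times (Mrpl58) to 4.43 times (Mrpl48) the RNA-seq length. This moves the level of their TE but not the ratio of one library's raw TE to another's, whereas the log2 difference with 1 RPKM added does depend on the length, most of all in low members.

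Footprints were also compared for genes that work with these ribosomes. Of 17 translation factors tested, 3 had a higher and 14 a lower RPF mean on the log2 scale in HB (median -0.34), near all 11190 tested genes, of which 7879 were lower (median -0.43). Taco1, Tufm and Gfm1 passed the study's TE thresholds downwards, beside 4.60% of all genes. Gfm1 had an RPF level of 33.7 and 33.2 RPKM in HF and of 18.0 and 16.3 RPKM in HB on 143 reads, opposite in direction to its mRNA (RPF adjusted p = 0.493, limma). Tufm was at 53.7 and 32.5 RPKM in HF and at 37.2 and 23.8 RPKM in HB on 121 reads, with overlapping groups. Of 24 assembly factors tested, 7 had a higher and 17 a lower RPF mean on the log2 scale (median -0.32), again near all tested genes. Rpusd3 and Mrm3 passed the study's RPF thresholds upwards, beside 1.58% of all genes, and Mterf3 and Mrm2 downwards, beside 7.86%, and Mrm3 passed those for TE upwards (all genes 1.49%) and Mrm2 downwards (all genes 4.60%). Rpusd3 was at 10.2 and 8.20 RPKM in HF and at 45.98 and 44.4 RPKM in HB on 39 reads, while Mrm3 and Mrm2 had 10 and 11 reads. Mterf3 had 20 reads, and both Mterf3 and Mrm2 were at 0 RPKM in both HB libraries, so that depth limits these falls. Of the 5 mitochondrial ribosomal proteins under other symbols, 4 had a higher RPF mean in HB and 1 a lower one (median 0.64), and Dap3 passed the study's thresholds. Dap3, a GTP-binding small subunit protein that is listed under another symbol, was at 8.52 and 6.05 RPKM in HF and at 21.4 and 17.1 RPKM in HB on 80 reads (adjusted p = 0.493, limma), while its mRNA was at 11.04 and 9.91 RPKM in HF and at 8.57 and 8.99 RPKM in HB.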

How the data were processed

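RNA-seq and Ribo-seq of mouse liver gave 8 libraries, 2 per group and assay. Per the study's methods and the submitters' processing notes, the authors aligned reads with FANSe2 (mouse build mm10) and deposited RPKM for each gene in each library; edgeR served for the authors' own comparisons of expression and another test for those of TE, none of which were used here. Library totals, gene lengths and whole reads were recovered from the RPKM steps. Lengths were sought that give whole reads within 0.0002 reads for RNA-seq and 1e-05 for Ribo-seq plus rounding. RNA-seq genes without such a length took that of Ribo-seq. A length was assigned to 99.99% of values above 0, and their reads were rounded to whole numbers. The reads summed to 97.1% to 99.1% of the totals. Reads entered the sums, exact Clopper-Pearson 95% intervals, depth statements and the voom alternative, which called 2769 of 10687 mRNAs. Genes with a mean of at least 1 RPKM were tested on log2(RPKM + 1), a scale that understates changes of low genes, by linear models with a variance trend in limma 3.58.1 (R 4.3.3), with Benjamini-Hochberg adjustment over all genes tested. For TE the value was log2((RPF + 1)/(mRNA + 1)). All p-values are two-sided. They and the SEs rest on limma's moderated variance. It draws the spread of a gene between 2 libraries per group towards a trend over all tested genes. In mRNA the SEs of the members ran from 0.24 to 0.35. The spread between libraries may be technical, since the labels describe pooled RNA preparations and the study's methods 2 mice per group. Calls used an adjusted p under 0.05 for mRNA and the study's thresholds for RPF and TE. Coordinates and overlaps came from GENCODE M21 (GRCm38), which held all 78 members, and promoters from RefSeq (GRCm38.p6). In simulated data with 200 genes changed by a log2 of 2, 100% were called in mRNA among 10677 genes (0.0859% of unchanged genes). In RPF 93.5% were called among 11022 genes (3.46% of unchanged genes). The changed genes were drawn from those with a mean of at least 20 RPKM, with little added spread between libraries. The members had mRNA changes of at most 1.50 and a median RPF level of 16.6 RPKM. These rates therefore do not measure how well changes of the members would be found. Named genes are the 5 most abundant of each subunit, up to 6 members per direction by smallest p in mRNA and up to 4 in RPF and in TE among members with at least 20 Ribo-seq reads, the 2 lowest mRNAs, members with a special place or role, and up to 3 genes of each further list by smallest mRNA p. Further called members, partners, neighbours, members with few reads, those with NRF1 letters and the marker genes, the uncalled translation factors, Gatb, Rpusd3, Mrm2, Mrm3, Taco1 and Dap3 were named after their values were seen. The members and lists were chosen with earlier results of these data known. Alternatives were another pseudocount, other filters, scalings, call rules and pairings, voom, another subunit assignment and leaving out each library.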

Additional observations from a re-analysis of the deposited data

How the results depend on the processing

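Without a filter on low values 0 members were called higher and 0 lower in mRNA. After rescaling to a common sum, 2 mRNAs were lower, 0 RPF were higher and 9 lower (median log2 fold change -1.02), and 0 TE were higher and 8 lower (median -1.33). After a shift to a common median, 25 mRNAs were higher (median 0.63), and 7 RPF were higher and 1 lower (median 0.13). Without a variance trend, 2 RPF were lower and 2 TE higher. With voom, 0 RPF were lower (median 0.021). Scaled to protein-coding reads, an alternative chosen after seeing the data, 1 RPF was lower. With a minimum of 5 RPKM 1 TE was lower, and with TE numbers crossed 2 were higher. With at least 20 Ribo-seq reads, 2 RPF were higher, and 0 TE were higher and 0 lower. By an adjusted p under 0.05, 0 RPF and 0 TE were called in either direction. By the study's thresholds 4 mRNAs were higher. Assigned by place, the large minus small subunit difference in mRNA was 0.051. The causes were not tested.

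Replicate numbers did not pair the samples (correlation of deviations between HF and HB -0.104 in mRNA and -0.0138 in RPF). Between mRNA and RPF libraries of equal number, as joined for TE, the correlation was -0.0024 in HF and -0.077 in HB. With the replicate block 2 mRNAs and 1 TE were lower, with 10 mRNAs higher as without it. With a crossed replicate block, chosen after seeing the data, 2 mRNAs and 9 RPF were lower.

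Leaving out each library in turn, with the lone library assumed to vary like the other group, gave 3 to 16 mRNAs higher and 1 to 4 lower, and a subunit difference of -0.082 to 0.066. The RPF counts were 0 to 7 higher and 2 to 14 lower, with a median of -0.28 to -0.015 and a subunit difference of -0.58 to 0.35. The TE counts were 0 to 2 higher and 0 to 15 lower, with a median of -0.63 to -0.26 and a subunit difference of -0.13 to 0.46.

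Of the named mRNAs that were not called, some changed sign. Mrpl14 was at -0.029 with a common sum, -0.021 on protein-coding reads and -0.33 to 0.36 without single libraries. With a common median Mrpl19 was at 0.057, Mrpl52 at 0.077, Mrps25 at 0.24 and Mrps7 at 0.21. Without single libraries Mrpl52 ranged from -0.49 to 0.0999, Mrps25 from -0.14 to 0.080, Mrps36 from -0.045 to 0.19 and Mrps7 from -0.36 to 0.24. In RPF and TE the depth of the HB libraries, with a median of 5 and 2 reads per member, limits every single-gene value.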
